A study of Mus musculus with 3 samples.

Results

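Conventional irradiation of the mouse thorax was compared with no irradiation, gene by gene, in single-cell RNA sequencing libraries of lung. The barcodes compared were those of the conventionally irradiated (CONV) and non-irradiated (NI) libraries that had 200 or more detected genes and no more than 10% of their unique molecular identifiers (UMIs) on mitochondrial genes. Barcodes with 1 or more UMIs of the thymocyte genes Rag1, Rag2, Dntt and Ptcra were dropped. This left 3682 barcodes, 1258 from NI and 2424 from CONV, of the 6662 deposited for the whole series. Every gene was compared over all kept barcodes, and then separately in barcodes with at least 1 UMI of Ptprc and in barcodes with none.

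The series holds 3 libraries of dissociated lung from female C57BL/6 mice 10 to 12 weeks old, 1 library for each group. The CONV and FLASH mice received 17 Gy of 4.5 MeV electrons to the thorax under isoflurane, at a conventional and at an ultra-high dose rate, and the NI mice were not irradiated. No genetic change is named in any group. The number of mice behind a library, the time from irradiation to sampling and the hour of sampling are not given in the sources used here. With 1 library per group there is no replicate check: every difference below is between these 2 libraries, and the 95% intervals cover counting error only. FLASH values are given beside some results as a further irradiated library. CONV and FLASH are both set against the same NI library, so their ratios to it are not independent.

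Ionising radiation breaks DNA and activates the transcription factor p53. This induces inhibitors of the cell cycle, apoptosis genes, repair genes and its own negative regulators. Ptprc encodes CD45, a tyrosine phosphatase on the surface of nearly all leukocytes, so the split by Ptprc separates, imperfectly, immune cells from epithelium, endothelium and connective tissue. Gas exchange in the lung takes place between flat alveolar epithelium and capillary endothelium, while type 2 epithelial cells secrete surfactant, and resident and recruited leukocytes patrol both.

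The promoters of 3 p53 targets whose levels are described below are shown first, since Cdkn1a was the only one of the listed targets searched with a match to a full p53 response element and Ccng1 and Mdm2 each hold a half-site. Capitals mark the match, flanked by 40 bases on either side.

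Cdkn1a, GRCm38.p6 chr17:29090866-29090977, plus strand: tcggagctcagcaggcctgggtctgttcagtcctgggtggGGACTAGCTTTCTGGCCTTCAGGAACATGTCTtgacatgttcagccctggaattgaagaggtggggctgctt

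Ccng1, GRCm38.p6 chr11:40755422-40755511, minus strand: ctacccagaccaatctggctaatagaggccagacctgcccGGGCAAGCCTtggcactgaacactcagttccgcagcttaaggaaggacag

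Mdm2, GRCm38.p6 chr10:117710895-117710984, minus strand: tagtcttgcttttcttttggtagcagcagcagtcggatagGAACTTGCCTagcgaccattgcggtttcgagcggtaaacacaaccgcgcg

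The motif searched was the consensus p53 half-site, on either strand, within the 250 bases before the start that RefSeq annotates. A response element is a pair of half-sites with at most 13 bases between them, so the Cdkn1a element contains both half-sites counted for that gene. A half-site was found in 11 of the 31 p53 target genes listed here that had a promoter in the table, which is 35.5%, against 8.2% of all genes with a promoter. The full element was found in 1 of the 31, Cdkn1a, against 0.0666% of all genes. A match describes the letters in this window and shows neither binding nor its absence.

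Over all kept barcodes depth was similar but not equal. Kept NI barcodes held 4649050 UMIs with a median of 2721 per barcode, and kept CONV barcodes 7269496 with a median of 2364. The NI library stood apart before any comparison: thymocyte genes removed 470 of its 1728 barcodes that passed the other filters, 27.2%, against 10 of 2434 CONV barcodes, 0.411%. Thymocyte transcripts remained after the drop. A wider list of thymocyte genes summed to 84.3 CPM (UMIs of a gene scaled to a library total of 1000000) in NI and 17.1 CPM in CONV, and to 249 and 32.7 CPM in the barcodes with T-cell markers. Transcripts of red cells and platelets differed the other way, at 129 CPM in NI and 825 CPM in CONV. The 2 libraries shared 6 kept barcode sequences.

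Ptprc was found in a smaller share of the barcodes of the CONV library. It was detected in 564 NI barcodes, 44.8% (42.1 to 47.6), and in 749 CONV barcodes, 30.9% (29.1 to 32.8), a difference of -13.9 points (-17.2 to -10.6, counting error only). Detection depends on depth: when every barcode was thinned to 1000 UMIs the shares were 25.8% and 18.2%. Of the barcodes of epithelial type, at medians of 6586 and 3909 UMIs, 7.69% in NI and 5.28% in CONV also held a Ptprc UMI. The source of those UMIs was not tested. In the other direction Ptprc misses leukocytes: barcodes with leukocyte markers made up 38.5% of the Ptprc-negative barcodes in NI and 23.6% in CONV. In a dissociated lung, fewer recovered cells of a type and less RNA per cell cannot be told apart from these shares.

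Marker genes put each barcode in 1 of 8 classes, called T-like, B-like and so on, and 3.18% of NI and 8.46% of CONV barcodes in none. Median UMIs per barcode in NI and CONV were 6586 and 3909 in epithelial-like, and 3654 and 2385 in myeloid-like barcodes. They were 3139 and 2123 in mesenchymal-like, and 2127 and 2002 in endothelial-like barcodes. The part of depth in the class shares was not tested. B-like barcodes were 16.7% of NI and 3.92% of CONV, a difference of -12.8 points (-15.1 to -10.6). T-like barcodes were 26.6% and 13.8%, a difference of -12.9 points (-15.7 to -10.1). Of the kept barcodes, 245 in NI and 104 in CONV still held a UMI of the wider thymocyte list, and their part in the T-like share was not tested. Myeloid-like barcodes were 15.7% and 24.1%, a difference of 8.47 points (5.79 to 11.1), and among Ptprc-positive barcodes alone 25.5% and 52.1%. T-like barcodes were 40.1% and 25.8% of the Ptprc-positive barcodes, and B-like barcodes 19.2% and 5.74%. Outside the leukocytes, endothelial-like barcodes were 20.3% of the 4 structural classes in NI and 8.67% in CONV, a difference of -11.7 points (-16.0 to -7.71).

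**Figure D1:**
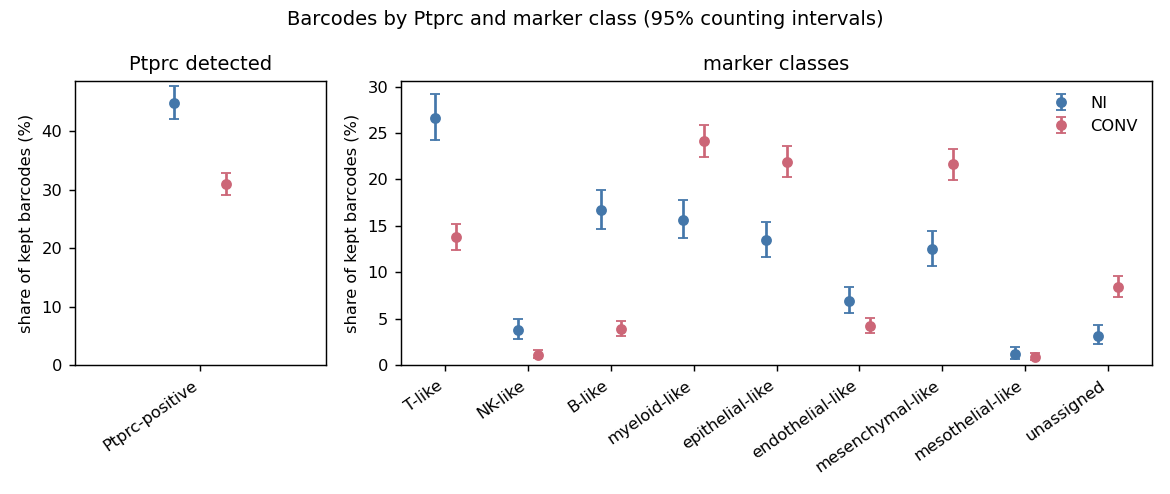
Share of kept barcodes (y axis, percent) in each marker class (x axis) or with a Ptprc UMI (left panel) for NI and CONV, with 95% exact binomial intervals. B-like barcodes are 16.7% of NI and 3.92% of CONV, and myeloid-like barcodes 15.7% and 24.1%.

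Of 9261 genes with at least 100 UMIs over both libraries, 852 were at least 1.5-fold higher in CONV over all kept barcodes, 9.2%, and 766 at least 1.5-fold lower, 8.27%. In Ptprc-positive barcodes 441 of 4553 genes were higher, 9.69%, and 352 lower, 7.73%. In Ptprc-negative barcodes 643 of 7724 were higher, 8.32%, and 578 lower, 7.48%. The median gene did not move: the median log2 ratio was 0.00, 0.00 and -0.01. With both libraries weighted to the same mix of classes, 469 genes were higher and 470 lower over all barcodes, and 181 were higher and 242 lower in Ptprc-positive barcodes.

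The strata were alike in part. Among the 4386 genes measured in both, 406 were higher in Ptprc-positive and 225 in Ptprc-negative barcodes. In both strata 127 were higher, which is 31.3% and 56.4% of these lists. Of all genes tested in a stratum, 8.32% were higher in Ptprc-negative and 9.69% in Ptprc-positive barcodes. Lower genes numbered 307 in Ptprc-positive and 342 in Ptprc-negative barcodes, and 151 were lower in both, 49.2% and 44.2% of the respective lists. Of all genes tested in a stratum, 7.48% were lower in Ptprc-negative and 7.73% in Ptprc-positive barcodes. Both strata come from the same 2 libraries, so their lists are not independent. Past 1.5-fold in opposite directions lay 13 genes, 10 of them higher in Ptprc-positive barcodes. Bpifa1, a secreted airway antimicrobial protein, was 4.85-fold higher in Ptprc-positive and at a ratio of 0.103 in Ptprc-negative barcodes. The first value rests on 1 CONV barcode with 103 of the 125 UMIs, and was 0.893 without the top barcode of each library.

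**Figure D2:**
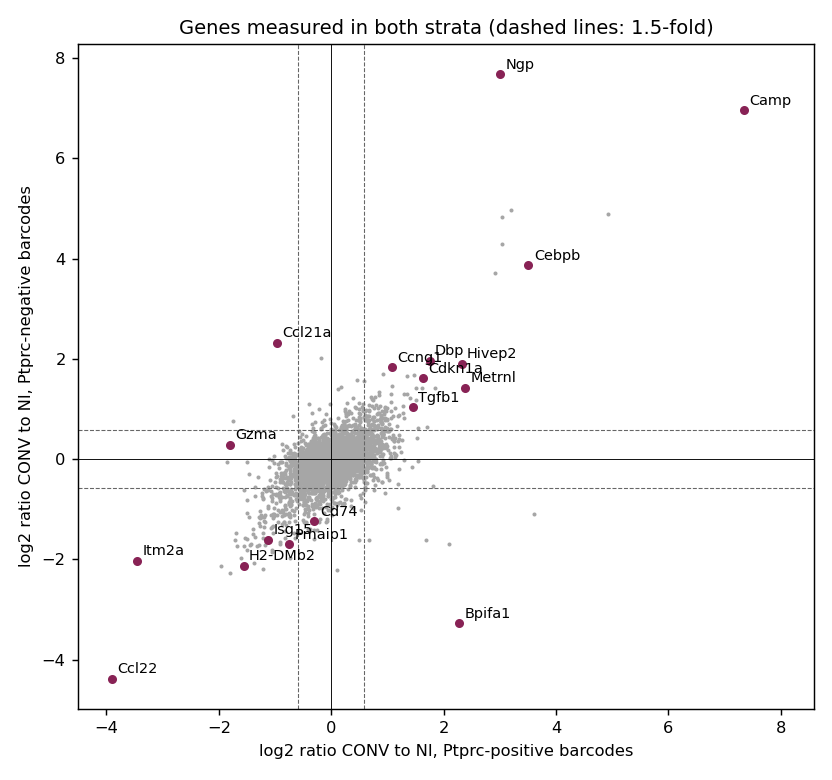
Each point is 1 of 4386 genes, with its log2 ratio of CONV to NI in Ptprc-positive barcodes (x axis) and in Ptprc-negative barcodes (y axis), and dashed lines at 1.5-fold. Cebpb, Cdkn1a, Dbp, Metrnl and Hivep2 lie high in both strata, Itm2a and Ccl22 low in both, and Bpifa1 and Ccl21a differ in direction between them.

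Cebpb had the broadest large difference. It encodes C/EBPβ, a transcription factor of acute inflammation and myeloid differentiation. Over all barcodes it was at 87.1 CPM in NI and 943 CPM in CONV, 10.8-fold higher (9.79 to 12.0). The FLASH library had 790 CPM.

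The difference was present in both strata and in every class with enough UMIs to compare. In Ptprc-positive barcodes Cebpb was at 156 CPM in NI and 1782 CPM in CONV, 11.4-fold higher (10.1 to 12.9). In Ptprc-negative barcodes it was at 41.7 and 610 CPM, 14.6-fold higher (12.2 to 17.7). Both libraries' levels were highest in myeloid-like barcodes, at 427 and 2992 CPM, where the ratio was the smallest of the classes compared, 7.01.

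The other class ratios were larger, each at a lower NI level than that of myeloid-like barcodes. In mesenchymal-like barcodes, a class of fibroblasts and mural cells, Cebpb was at 47.2 CPM in NI and 817 CPM in CONV, 17.3-fold higher. Epithelial-like barcodes had 22.3 and 273 CPM, 12.2-fold higher. T-like barcodes had 5 UMIs in NI and 98 in CONV, 23.8-fold higher with a wide interval (9.87 to 75.0). With the same class mix the ratios were 8.59 over all barcodes, 7.02 in Ptprc-positive and 12.6 in Ptprc-negative barcodes. When no barcode was dropped for thymocyte genes the Cebpb ratio in Ptprc-positive barcodes was 20.

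Other C/EBP genes that could be compared differed much less. Cebpa, a factor of myeloid and alveolar epithelial maturation, was at 51.0 CPM in NI and 94.9 CPM in CONV, 1.86-fold higher (1.60 to 2.17), but just under 1.5-fold with the same class mix. Cebpg, a partner that binds DNA with other family members, was at 40.2 and 68.0 CPM, 1.69-fold higher. Ddit3, the stress-induced CHOP, had a ratio of 1.07 and Cebpz one of 1.09. In all, 3 of the 5 members that passed the filter of 100 UMIs, of 7 listed, were higher and none lower, against 9.2% of all genes higher, and 2 were higher with the same class mix.

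Of the p53 targets of arrest and feedback, Cdkn1a and Ccng1 were higher in CONV in both strata. No other member that passed the filter was higher in Ptprc-positive barcodes. Cdkn1a encodes p21, the cyclin-dependent kinase inhibitor through which p53 arrests cells in G1. It was at 189 CPM in NI, 586 CPM in CONV and 630 CPM in FLASH over all barcodes, and CONV was 3.10-fold higher than NI (2.89 to 3.34). The ratio was 3.10 in Ptprc-positive barcodes, from 177 to 550 CPM, and 3.06 in Ptprc-negative barcodes, from 197 to 601 CPM.

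Cdkn1a was higher in each class where it could be compared. Endothelial-like barcodes had its highest level in both libraries, 837 and 1924 CPM, with the smallest of the 5 ratios, 2.30. Mesenchymal-like barcodes had 153 and 655 CPM and the largest, 4.29. Epithelial-like barcodes lay between, at 101 and 346 CPM and 3.43-fold, as did myeloid-like ones at 441 and 1076 CPM and 2.44-fold and mesothelial-like ones at 407 and 1302 CPM and 3.20-fold. With the same class mix the Ptprc-positive ratio was 2.08.

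Ccng1, cyclin G1, which recruits a phosphatase to Mdm2, was at 40.0 CPM in NI and 123 CPM in CONV, 3.06-fold higher (2.61 to 3.61). Its difference was larger outside the leukocytes, 3.55-fold in Ptprc-negative against 2.11-fold in Ptprc-positive barcodes. In epithelial-like barcodes it was at 16.6 and 142 CPM, 8.59-fold higher (5.63 to 13.7), which is more than the 3.43-fold of Cdkn1a in the same barcodes. Mdm2, the ubiquitin ligase that degrades p53, was at 41.9 and 62.6 CPM, 1.49-fold higher. Its ratio was 1.68 in Ptprc-negative barcodes, and 1.19 in Ptprc-positive ones with an interval that spans 1 (0.895 to 1.60).

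Gdf15, a secreted stress cytokine of the TGF-β family, was at 5.71 CPM in NI and 40.0 CPM in CONV among Ptprc-negative barcodes, 7.01-fold higher (4.21 to 12.5). Sesn2, a stress-induced inhibitor of mTORC1, had 15 and 86 UMIs there, 3.09-fold higher (1.77 to 5.76). Zmat3, an RNA-binding p53 target, was 2.21-fold higher over all barcodes, from 11.8 to 26.1 CPM. By contrast the antiproliferative immediate early gene Btg2 was at 699 and 633 CPM, a ratio of 0.906. The kinase gene Plk2 was at 45.6 and 33.7 CPM, a ratio of 0.739, and Ppm1d, the phosphatase that ends the p53 response, had a ratio of 0.774.

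For this arrest and feedback list, 12 of 14 members passed the filter over all barcodes, 5 were higher and none lower, with a median log2 ratio of 0.56 against 0.00 for all genes. In Ptprc-negative barcodes 7 of 12 were higher and none lower, with a median of 0.68. In Ptprc-positive barcodes 2 of 7 were higher and none lower, with a median of 0.26. With the same class mix that median was 0.03. Of all genes, 9.2% were higher over all barcodes, 8.32% in Ptprc-negative and 9.69% in Ptprc-positive barcodes.

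Among the p53 targets of the apoptosis pathway, Phlda3, an inhibitor of Akt signalling, was at 60.9 CPM in NI and 188 CPM in CONV, 3.09-fold higher (2.72 to 3.52). It was higher in Ptprc-positive barcodes, 20.04 and 71.55 CPM, and in Ptprc-negative ones, 87.8 and 234 CPM. Bax, the pore-forming effector of mitochondrial apoptosis, was at 157 and 253 CPM, 1.61-fold higher. The nuclease gene Aen was at 15.5 and 34.3 CPM, 2.21-fold higher, and Ei24 at 35.7 and 80.3 CPM, 2.25-fold higher.

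Other death genes lay the other way. Pmaip1, which encodes the BH3-only protein Noxa, was at 61.7 CPM in NI and 25.04 CPM in CONV, a ratio of 0.406. In Ptprc-positive barcodes its ratio was 0.594, and 0.929 when no barcode was dropped for thymocyte genes. In myeloid-like barcodes it was at 254 and 93.5 CPM, a ratio of 0.369. The death receptor gene Fas was at 51.0 and 35.6 CPM, a ratio of 0.699, and in endothelial-like barcodes at 367 and 151 CPM, a ratio of 0.411. Perp, a membrane protein of desmosomes and apoptosis, was 2.31-fold higher in Ptprc-positive barcodes, or 1.46-fold with the same class mix, and had a ratio of 0.870 in Ptprc-negative ones.

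Of the 9 apoptosis members that passed the filter, of 12 listed, 5 were higher and 1 lower, with a median log2 ratio of 0.69. The counts were 3 higher and 1 lower of 6 in Ptprc-positive barcodes, and 4 higher and 2 lower of 8 in Ptprc-negative barcodes. Of all genes, 9.2% were higher and 8.27% lower over all barcodes. Those shares were 9.69% and 7.73% in Ptprc-positive, and 8.32% and 7.48% in Ptprc-negative barcodes.

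In the list of repair and metabolic targets, Ephx1, an epoxide hydrolase, was at 32.3 CPM in NI and 82.4 CPM in CONV, 2.55-fold higher. Dcxr, which reduces reactive dicarbonyls, was at 100 and 241 CPM, 2.41-fold higher (2.17 to 2.67), and mesenchymal-like barcodes had the largest of its class ratios, 3.47. Rps27l, a ribosomal protein paralog that p53 induces, was at 407 and 678 CPM, 1.67-fold higher, or 1.42-fold when no barcode was dropped for thymocyte genes. Gadd45a, a growth arrest and repair gene, was at 53.3 and 38.7 CPM, a ratio of 0.725. Of 10 members that passed the filter, of 13 listed, 5 were higher and none lower, against 9.2% and 8.27% of all genes. Their median log2 ratio was 0.46.

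**Figure D3:**
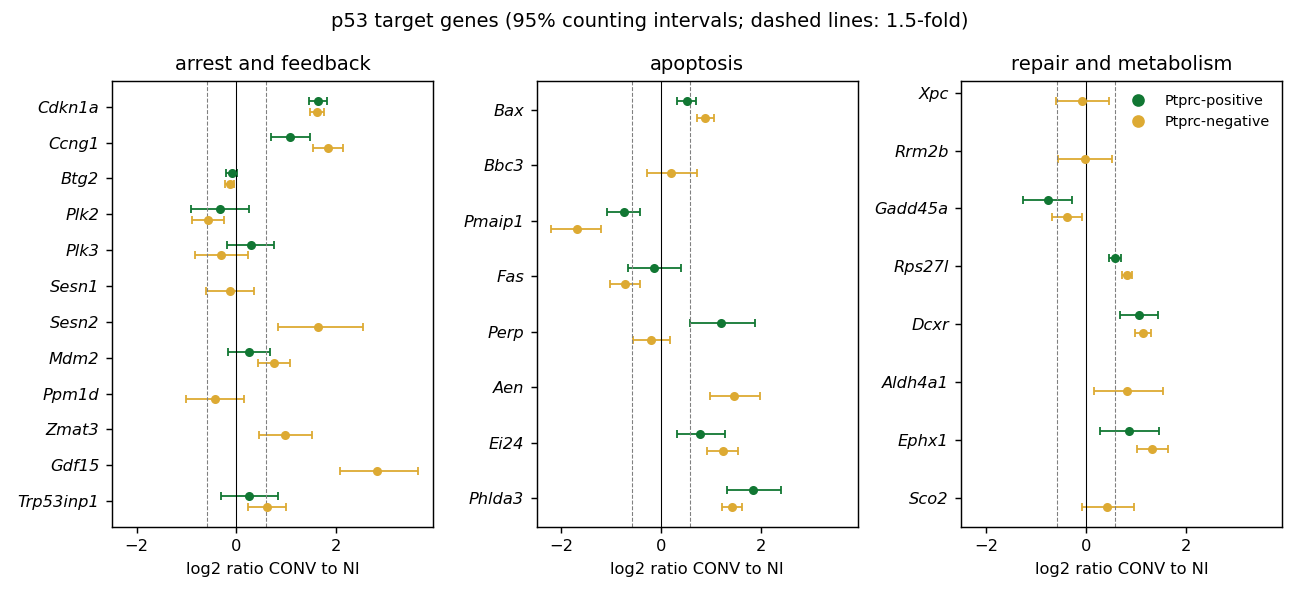
Log2 ratio of CONV to NI (x axis) for members of the 3 p53 target lists with at least 100 UMIs, in Ptprc-positive and Ptprc-negative barcodes, with 95% counting intervals and dashed lines at 1.5-fold. Cdkn1a, Ccng1, Phlda3, Ei24, Dcxr and Ephx1 lie right of the line at 1.5-fold in both strata, while Pmaip1 lies left of the line at 1.5-fold lower in both, at 0.594 in Ptprc-positive barcodes, or 0.929 with no barcode dropped for thymocyte genes.

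The molecular clock differed in its output genes and, over all barcodes, in several of its repressors. In this loop CLOCK and BMAL1 drive the Per, Cry and Nr1d repressors through E-boxes, and Dbp, Tef and Hlf act on D-boxes, which Nfil3 opposes. The labels state a normal cycle of light and dark, and whether the 2 libraries were collected at the same hour cannot be told from them. Dbp was at 37.6 CPM in NI and 161 CPM in CONV, 4.27-fold higher (3.64 to 5.04), and FLASH had 161 CPM. It was higher in Ptprc-positive barcodes, 3.37-fold, and in Ptprc-negative barcodes, 52.8 and 205 CPM and 3.88-fold.

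Dbp could be compared in a pair of structural classes. Epithelial-like barcodes had 30.2 CPM in NI and 175 CPM in CONV, 5.80-fold higher, and mesenchymal-like barcodes 113 and 389 CPM, 3.45-fold higher. Tef was at 20 and 54.5 CPM, 2.72-fold higher, and Hlf was 2.14-fold higher, while Nfil3 had a ratio of 1.14. All 4 output genes passed the filter, and 3 were higher and none lower, against 9.2% and 8.27% of all genes. Their median log2 ratio was 1.27.

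Among the repressors, Per3 was at 21.3 CPM in NI and 65.6 CPM in CONV, 3.08-fold higher (2.48 to 3.87), and Per2 was 2.51-fold higher. Nr1d1, the nuclear receptor REV-ERBα, was at 43.5 and 72.2 CPM, 1.66-fold higher, and Cry2 was 1.53-fold higher. Per1, which also responds acutely to stress hormones, had a ratio of 1.23. Cry1 was lower, at 15.5 and 10.2 CPM, a ratio of 0.657. Of 9 repressors that passed the filter, of 10 listed, 4 were higher and 1 lower, against 9.2% and 8.27% of all genes. With the same class mix 2 were higher and none lower, with Nr1d1 at 1.30, Cry2 at 1.31 and Cry1 at 0.848. Clock itself was at 27.1 and 19.8 CPM, a ratio of 0.731. By class, 1 of 6 repressors was higher in epithelial-like barcodes (median log2 ratio 0.07) and 2 of 3 in mesenchymal-like ones (0.75). In myeloid-like barcodes none of 3 was higher and 1 was lower (-0.41). Of all genes, 10.2%, 5.98% and 6.57% were higher in these classes, in that order, and 4.79% lower in the myeloid-like class.

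A promoter of each arm is shown because Tef and Per3 were among the higher genes, with the E-box CACGTG or the D-box TTATGNAA in capitals.

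Tef, E-box, GRCm38.p6 chr15:81802506-81802591, plus strand: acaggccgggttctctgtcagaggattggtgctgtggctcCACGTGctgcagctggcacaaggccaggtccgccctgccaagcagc

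Per3, D-box, GRCm38.p6 chr4:151044776-151044863, minus strand: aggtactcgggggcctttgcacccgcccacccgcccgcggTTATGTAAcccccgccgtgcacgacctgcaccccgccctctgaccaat

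Searched on both strands, the E-box was in the promoters of 5 of the 12 clock repressors and output genes with a promoter in the table, 41.7%, against 6.86% of all genes. The genes were Bhlhe41, Ciart, Cry1, Per1 and Tef. The D-box was in 2 of the 12, Per1 and Per3, 16.7% against 3.63% of all genes.

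Antigen presentation genes were lower in CONV, most of all outside the Ptprc-positive barcodes. Cd74, the invariant chain that loads MHC class II, was at 7089 CPM in NI, 3850 CPM in CONV and 3601 CPM in FLASH over all barcodes, a CONV ratio of 0.543 (0.534 to 0.552). In Ptprc-negative barcodes it was at 5902 and 2504 CPM, a ratio of 0.424, and in Ptprc-positive ones at 8891 and 7235 CPM, a ratio of 0.814. The Ptprc-positive value turned on the thymocyte filter, and was 1.21 when no barcode was dropped.

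Cd74 was also lower within classes that do and do not specialise in presentation. Myeloid-like barcodes had 0.639 and B-like barcodes 0.679 of their NI level. Epithelial-like barcodes, in which type 2 cells carry MHC class II, went from 4054 CPM in NI to 2068 CPM in CONV, a ratio of 0.510. Endothelial-like barcodes had the largest difference, 3358 and 401 CPM, a ratio of 0.119 (0.0961 to 0.147). Mesenchymal-like barcodes were nearly level at 361 and 335 CPM.

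Of the 8 class II genes that passed the filter, of 9 listed, 6 were lower over all barcodes and none higher, with a median log2 ratio of -0.75, against 8.27% of all genes lower. The count was 4 with the same class mix, and 2 when no barcode was dropped for thymocyte genes, when Cd74 was at 0.695. All 8 were lower in Ptprc-negative barcodes, with a median of -1.15, against 7.48% of all genes there. In that stratum H2-DMa had a ratio of 0.737 with the same class mix, and H2-DMb1 one of 0.840 after thinning. B-like barcodes were 14.7% of the Ptprc-negative barcodes in NI and 3.10% in CONV. The same class mix evened out all classes at once, and the part of the B-like barcodes alone was not tested. In Ptprc-positive barcodes 2 were lower, with a median of -0.16 that became 0.36 when no barcode was dropped for thymocyte genes. H2-Ab1, a chain of the class II dimer, had a ratio of 0.462 in Ptprc-negative and 1.01 in Ptprc-positive barcodes.

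Class I genes followed a like pattern. B2m, the light chain shared by class I molecules, was at 2479 CPM in NI and 1758 CPM in CONV, a ratio of 0.709. Its ratio was 0.615 in Ptprc-negative and 0.960 in Ptprc-positive barcodes, and the latter was 1.37 when no barcode was dropped for thymocyte genes. In endothelial-like barcodes B2m was at 5480 and 2594 CPM, a ratio of 0.473, and in T-like barcodes it was level at 3230 and 3221 CPM.

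The peptide transporter gene Tap1 had a ratio of 0.498, and the immunoproteasome genes Psmb8 and Psmb9 had ratios of 0.569 and 0.508. Psmb10, an immunoproteasome gene outside the list, was at 93.5 CPM in NI and 21.8 CPM in CONV in epithelial-like barcodes, a ratio of 0.233. All 13 class I genes listed passed the filter, with 9 lower and none higher over all barcodes, 11 lower in Ptprc-negative and 4 lower in Ptprc-positive barcodes. The shares of all genes lower were 8.27%, 7.48% and 7.73%. The class I counts were 4, 5 and 1 with the same class mix, and B2m in Ptprc-negative barcodes was at 0.693.

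Interferon-stimulated genes, many of which share regulators with class I, were more often lower than higher over all barcodes. Irf7, the master regulator of type I interferon genes, was at 49.5 CPM in NI and 19.4 CPM in CONV, a ratio of 0.392. Ifit3, an antiviral effector, had a ratio of 0.557. On the other side Ifitm3, a membrane protein that blocks virus entry, was at 683 and 1214 CPM in Ptprc-positive barcodes, 1.78-fold higher. Its neighbour Ifitm1 was 1.62-fold higher over all barcodes and 2.90-fold higher in epithelial-like ones. Neither pooled value was past 1.5-fold with the same class mix, at 1.15 for Ifitm3 in Ptprc-positive barcodes and 1.19 for Ifitm1 over all. Of 23 members that passed the filter, of 26 listed, 1 was higher and 12 lower, against 9.2% and 8.27% of all genes. Their median log2 ratio was -0.60. None was higher and 9 were lower with the same class mix.

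**Figure D4:**
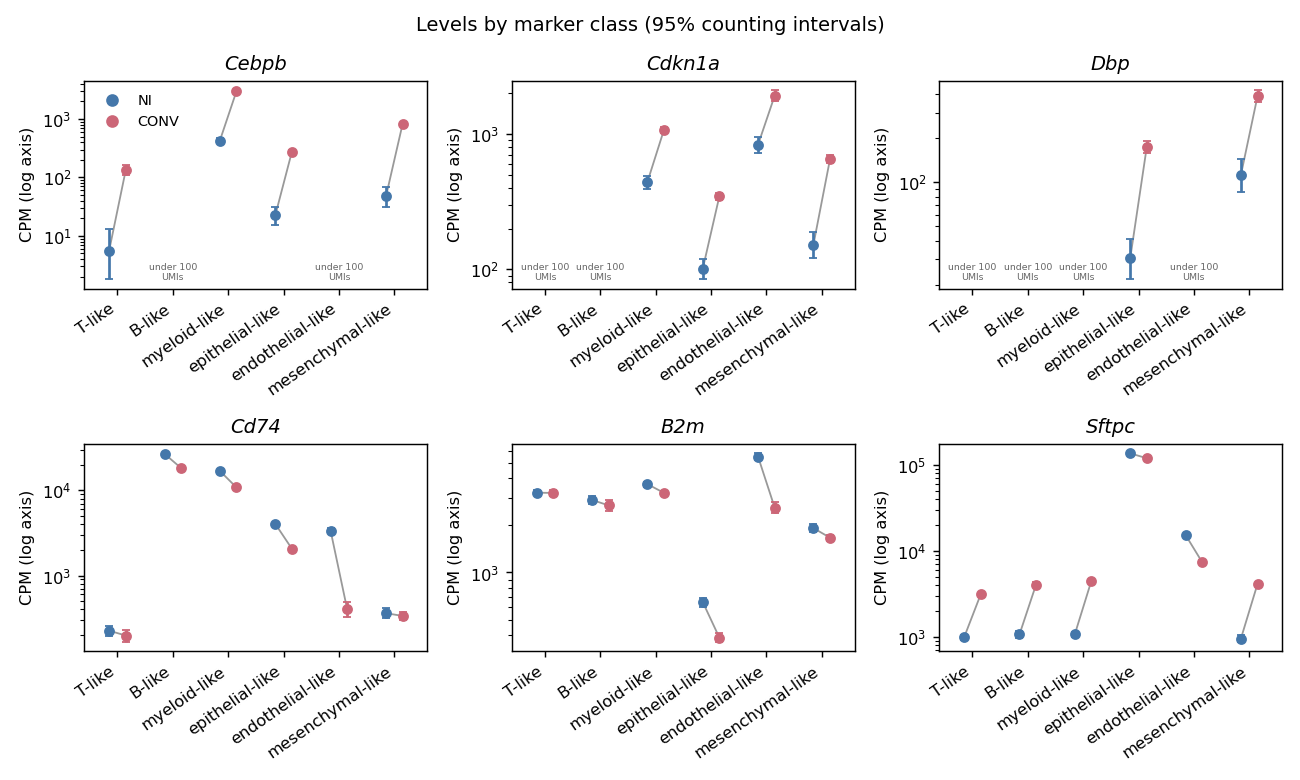
Level in CPM (y axis, log scale) of 6 genes in each marker class for NI and CONV, with 95% counting intervals, and classes under 100 UMIs left blank. Cebpb, Cdkn1a and Dbp are higher in CONV in each class shown, Cd74 and B2m are lowest relative to NI in endothelial-like barcodes, and Sftpc is higher in CONV in the T-like, B-like, myeloid-like and mesenchymal-like classes but not in the epithelial-like class that makes it.

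Transcripts of other cells were found in the classes at levels that differed between the libraries. Sftpc, surfactant protein C of type 2 cells, was at 136303 CPM in NI and 119553 CPM in CONV in epithelial-like barcodes, a ratio of 0.877. It was nonetheless 3.16-fold higher in T-like, 3.804-fold in B-like, 4.20-fold in myeloid-like and 4.32-fold in mesenchymal-like barcodes. The matrix protein gene Mgp, at a ratio of 1.40 in mesenchymal-like barcodes, was 6.10-fold higher in T-like, 5.91-fold in myeloid-like and 8.30-fold in epithelial-like barcodes. S100a8, an abundant neutrophil and monocyte gene with a ratio of 0.873 in myeloid-like barcodes, was 5.71-fold higher in T-like and 12.4-fold in B-like barcodes. T-cell markers lay the other way, at 55.2 CPM in NI and 20.9 CPM in CONV in myeloid-like and 74.5 and 22.8 CPM in mesenchymal-like barcodes. The part of such transcripts in the class differences given here was not tested. The Cebpb ratios by class are among those differences.

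In T-like barcodes most differences were toward lower levels: 84 of 1816 genes were higher, 4.63%, and 241 lower, 13.3%, with a median log2 ratio of -0.15. The genes named for single classes in this and the following paragraphs were taken from those found in at least 10% of a class's barcodes, after their values were seen. Itm2a, a membrane protein induced during thymocyte selection, was at 556 CPM in NI and 51.7 CPM in CONV, a ratio of 0.0930. Sox4, Cd24a and Tox, all expressed in developing T cells, had ratios of 0.113, 0.230 and 0.344, and Satb1, a chromatin organiser of thymocytes, went from 569 to 278 CPM. The wider list of thymocyte genes was at 249 CPM in NI and 32.7 CPM in CONV in the same barcodes. Dropping barcodes by that wider list brought Itm2a in Ptprc-positive barcodes from 0.0916 to 0.196, and Satb1 to 0.483.

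Genes of lymphocyte homing did not share that direction within the class. S1pr1, the receptor for leaving lymphoid tissue, was at 194 CPM in NI and 286 CPM in CONV, 1.48-fold higher (1.20 to 1.81). Ccr7, the lymph node homing receptor, was at 773 and 659 CPM, a ratio of 0.852. In T-like barcodes 2 of the 10 members that passed the filter, of 11 listed, were lower, Lef1 and Satb1, with a median log2 ratio of 0.17. Over all barcodes 6 of 10 were lower, with a median of -0.75, and 2 of 10 with the same class mix. Of all genes, 13.3% were lower in T-like barcodes and 8.27% over all barcodes.

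Cytotoxic genes were lower in the Ptprc-positive barcodes. Gzma and Gzmb, the granzymes of NK and killer T cells, were at 825 and 158 CPM in NI, and at 237 and 28.0 CPM in CONV, ratios of 0.287 and 0.178. Klra9, an NK receptor, had 97 and 15 UMIs, a ratio of 0.138. NK-like barcodes were 3.82% of NI and 1.16% of CONV, and with the same class mix the Gzma ratio was 0.688.

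In myeloid-like barcodes 203 of 3091 genes were higher, 6.57%, and 148 lower, 4.79%. Tgfb1, the fibrogenic and immunosuppressive cytokine, was at 156 CPM in NI and 463 CPM in CONV, 2.96-fold higher (2.44 to 3.63), and in Ptprc-positive barcodes at 119 and 326 CPM, 2.73-fold higher. Metrnl, a secreted meteorin-like factor of macrophages, was at 84.1 and 335 CPM, 3.99-fold higher, and Hivep2, a zinc finger regulator of NF-κB signalling, at 14.4 and 75.2 CPM, 5.201-fold higher. Hes1, a Notch target, was 3.78-fold higher.

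Other genes were lower in the same class. Ccl22, a chemokine of mature dendritic cells, was at 294 CPM in NI and 13.7 CPM in CONV, a ratio of 0.0466, with 23 NI and 11 CONV barcodes holding any UMI of it over the whole libraries. Rgs1, which dampens chemokine receptors, was at 268 and 44.4 CPM, a ratio of 0.166. Tnfaip3, the NF-κB inhibitor A20, was at 214 and 92.8 CPM, a ratio of 0.433. Il6 had a ratio of 0.326 and Il1b one of 0.820. Of the 13 NF-κB and cytokine genes that passed the filter, of 14 listed, 3 were lower and none higher. Of all genes in the class, 4.79% were lower and 6.57% higher. The part of the mix of myeloid cell types in the higher and lower ratios of this class was not tested.

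Chemokine genes differed in both directions in Ptprc-positive barcodes. Of the 15 that passed the filter, of 20 listed, 6 were higher and 3 lower, against 9.69% and 7.73% of all genes. The counts were 3 higher and 5 lower with the same class mix. Cxcl1, a neutrophil attractant, was 3.50-fold higher there. Ccl6 was 1.86-fold higher in that stratum, but 1.16-fold within myeloid-like barcodes. Ccl5, a lymphocyte chemokine, was at 2654 CPM in NI and 1238 CPM in CONV, a ratio of 0.466 that came to 0.921 with the same class mix.

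Camp and Ngp, which encode granule proteins made by neutrophil precursors in bone marrow, had large ratios that rested on few barcodes. Camp had 5 UMIs in NI and 1011 in CONV, of which 1 barcode held 431 and 39 barcodes any, a ratio of 129 (55.2 to 399). In Ptprc-negative barcodes its ratio was 124, and 16.7 without the top barcode of each library. Ngp had 45 and 776 UMIs, a ratio of 11.03, which was 36.6 without the top barcodes. When no barcode was dropped for thymocyte genes, the ratios over all barcodes were 34.7 for Camp and 4.01 for Ngp. In FLASH, Camp was at 32.6 CPM against 139 in CONV.

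In epithelial-like barcodes the balance was toward higher levels, 386 of 3786 genes, 10.2%, against 146 lower, 3.86%. Arhgdig was at 12.95 CPM in NI and 110.7 CPM in CONV, 8.55-fold higher (5.31 to 14.6), and was found in 89 CONV barcodes of the class. C2cd4b, a nuclear protein induced by inflammatory cytokines, was at 25.9 and 95.7 CPM, 3.70-fold higher. Ctsl, a lysosomal protease, was at 261 and 74.7 CPM, a ratio of 0.286. Pigr, which carries IgA across the epithelium, was at 87.1 and 34.5 CPM, a ratio of 0.396. The part of the mix of epithelial cell types in the ratios of this class was not tested.

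Surfactant genes themselves were close to level in that class. Of the 12 surfactant and lamellar body genes listed, all of which passed the filter there, none were higher and 2 lower, with a median log2 ratio of -0.14 against 0.09 for all genes. Abca3, the lipid pump of lamellar bodies, was at 282 and 274 CPM, a ratio of 0.972. The lower pair were Lrg1 and Itih4, against 3.86% of all genes lower in the class. Itih4, a plasma protein of the acute phase, was at 146 and 50.9 CPM, a ratio of 0.349. Scd1, which desaturates the fatty acids of surfactant lipid, was 1.52-fold higher at 2370 and 3605 CPM.

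Keratin genes of basal epithelium were found in NI and hardly at all in CONV. Krt5 and Krt17 had 105 and 118 UMIs in NI and none in CONV, at least 54.7-fold and 61.5-fold lower against a floor of 3 UMIs over the library. Krt15 had 169 and 3, a ratio of 0.0114 (0.00232 to 0.0338). These UMIs came from 10, 9 and 12 NI barcodes. Tbata, Ccl25 and Avp were also lower in CONV, and the first pair is known from thymic epithelium. For each of these genes the top NI barcode held 280 of 330, 131 of 230 and 156 of 159 UMIs, respectively. Without the top barcode of each library the Tbata ratio was 0.435 in place of 0.0717. The thymocyte transcripts given above were also higher in NI, and their relation to these barcodes was not tested. Resp18, a protein of secretory granules, was the reverse, with 126 UMIs in 17 CONV barcodes and none in NI, at least 26.9-fold higher.

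Endothelial-like barcodes, 87 in NI and 102 in CONV, differed in the largest share of genes of the classes compared, 123 of 788 higher, 15.6%, and 154 lower, 19.5%. Of the 123 higher genes, 57 were ribosomal protein genes. The 79 ribosomal protein genes measured in the class had a median log2 ratio of 0.71. Some genes known from alveolar capillaries were among those lower. Tmem100, a BMP9 target, was at 2454 CPM in NI and 686 CPM in CONV, a ratio of 0.280. Car4, a carbonic anhydrase of capillaries, was at 1188 and 313 CPM, a ratio of 0.264, and Gpihbp1, which anchors lipoprotein lipase, at 1239 and 290 CPM, a ratio of 0.234.

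Some genes known from lymphatic vessels were among those higher. Ccl21a, the chemokine that draws Ccr7-bearing cells into lymphatics, was at 2052 CPM in NI and 11659 CPM in CONV, 5.68-fold higher (5.18 to 6.25). Mmrn1, another lymphatic gene, was at 90.8 and 512 CPM, 5.64-fold higher, and the hyaluronan receptor gene Lyve1 at 584 and 1460 CPM, 2.50-fold higher. Glycam1, a mucin of high endothelial venules, had 298 UMIs in 4 CONV barcodes and none in NI, at least 99.9-fold higher. For Cd74, B2m and Fas, lower levels within a vessel type and a different mix of vessel types cannot be told apart in this class.

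Mesenchymal-like barcodes had 164 of 2743 genes higher, 5.98%, and 138 lower, 5.03%. Acta2, smooth muscle actin, was at 2474 CPM in NI and 838 CPM in CONV, a ratio of 0.339, and the contractile genes Myh11 and Tagln had ratios of 0.245 and 0.403. The part of the mix of fibroblasts and mural cells in these ratios was not tested. Ctgf, a matricellular target of TGF-β and YAP, was at 322 and 111 CPM, a ratio of 0.344. Of matrix genes, 5 of the 23 that passed the filter, of 24 listed, were lower and none higher, with a median log2 ratio of -0.29 against -0.03 for all genes. The 5 were Eln, Dcn, Loxl1, Col3a1 and Lum, of which the last pair are markers that define the class. Loxl1, which crosslinks elastin, was at 536 and 356 CPM, and Dcn, a proteoglycan of collagen fibrils, at 3572 and 2322 CPM. Thbs1, which activates latent TGF-β, was 2.05-fold higher at 220 and 451 CPM, and Camk2n1, an inhibitor of CaM kinase II, 5.60-fold higher at 43.6 and 244 CPM.

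The lists of general cell stress differed by class. None of the 19 immediate early genes that passed the filter, of 21 listed, was past 1.5-fold over all barcodes, with a median log2 ratio of -0.31. Within classes 6 of 17 were lower in mesenchymal-like, 5 of 15 in endothelial-like, 5 of 19 in myeloid-like and 4 of 18 in epithelial-like barcodes, against 5.03%, 19.5%, 4.79% and 3.86% of all genes. Jun, a subunit of AP-1, was at 2336 CPM in NI and 940 CPM in CONV in endothelial-like barcodes, a ratio of 0.403, and at 1435 and 820 CPM in mesenchymal-like barcodes, a ratio of 0.572. None of the 20 nuclear genes of oxidative phosphorylation was past 1.5-fold, with a median of 0.04. The heat shock list had a median of 0.10 and that of the unfolded protein response -0.01. Genes of DNA replication and of mitosis were lower over all barcodes, 7 of 12 and 4 of 6 of those that passed the filter. The share of all genes lower was 8.27%. With the same class mix the counts were 4 of 12 and 0 of 6. Top2a, a mitotic topoisomerase, was at 24.1 CPM in NI and 12.8 CPM in CONV, a ratio of 0.531. It was 0.767 with the same class mix and 0.762 with doublets removed. When barcodes were dropped by the wider thymocyte list, Top2a was at 0.694. Under that drop the mitosis gene Ube2c went from 0.524 to 0.748, and the replication gene Mcm7 from 0.633 to 0.745. In T-like barcodes the 3 mitosis genes measured all had ratios above 1, as did 1 of 3 replication genes.

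**Figure D5:**
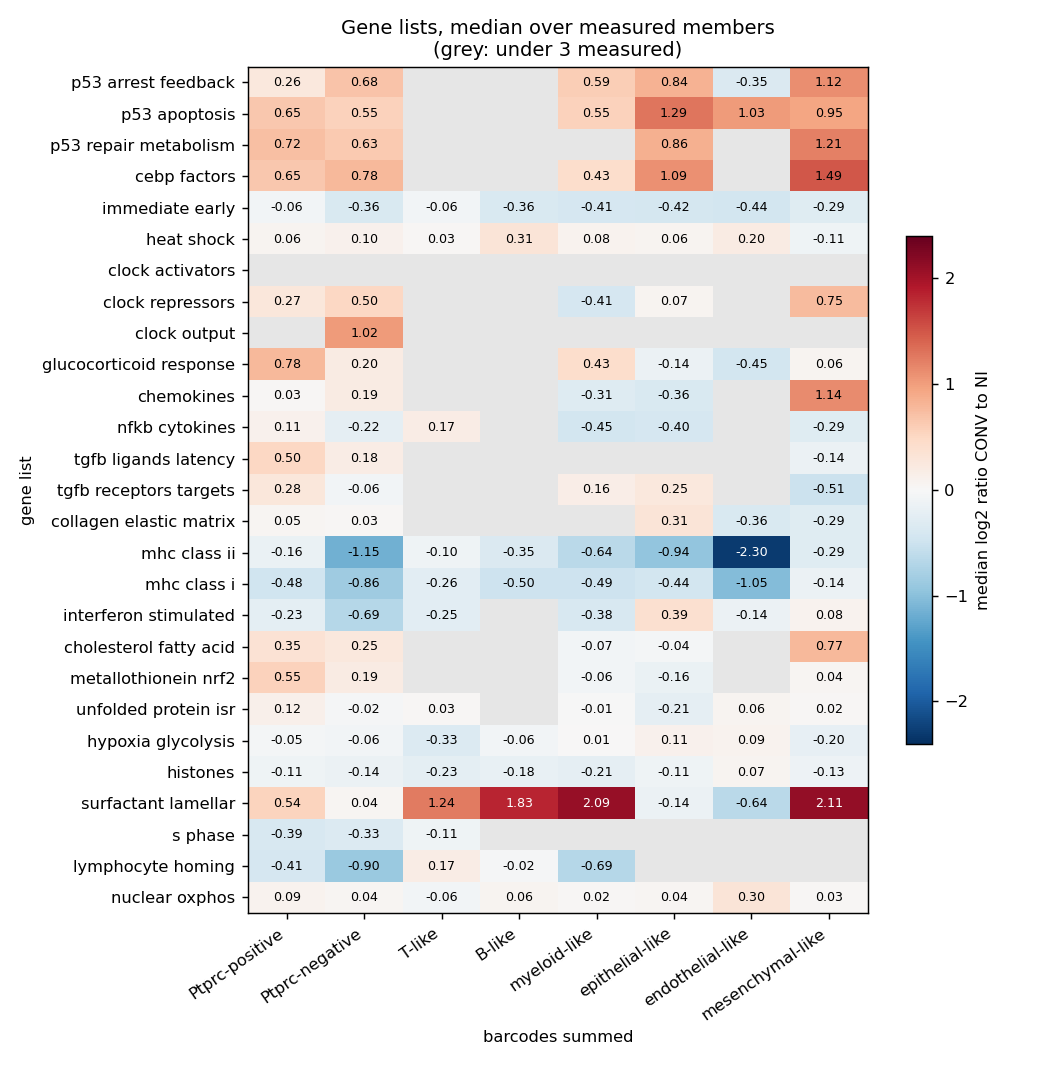
Each cell gives the median log2 ratio of CONV to NI over the members with at least 100 UMIs of a gene list (y axis) in a stratum or marker class (x axis), coloured by value, with grey where fewer than 3 were measured. MHC class II has its lowest median, -2.30, in endothelial-like barcodes, the p53 arrest and feedback list has 1.12 in mesenchymal-like and -0.35 in endothelial-like barcodes, and surfactant genes have a median of 2.09 in myeloid-like, 2.11 in mesenchymal-like and -0.64 in endothelial-like barcodes.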

How the data were processed

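Single-cell suspensions of lung were sequenced with 10x Genomics 3' version 2 chemistry, per the labels' protocols. The authors deposited raw UMI count matrices, with 1 library for each of NI, CONV and FLASH. They were made with Cell Ranger 2.0 on mm10, per the submitters' processing notes, and how barcodes were called and which annotation was used are not given in the sources used here. Each matrix has 27998 genes.

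Barcodes were filtered by the rule given at the start of the report. Doublets were kept, and removing the top Scrublet scores (scanpy 1.11.5, at 0.8% per 1000 barcodes) was an alternative. A barcode went to the marker class with the most summed marker UMIs, where that sum was at least 2 and at least 2 times the next class. UMIs were summed over barcodes and divided by the total to give CPM. Ratios of CONV to NI have exact conditional binomial 95% intervals, shares have Clopper-Pearson intervals, and Newcombe's method gave those of their differences (scipy 1.17.1). Higher or lower means at least 1.5-fold, among genes with at least 100 UMIs over both libraries in that stratum. No test across genes was run, since each group is 1 library. The summing and intervals were checked on simulated counts.

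Genes were named by rule: per stratum the 8 genes on either side ranked by the interval bound nearest to 1, and in each of 28 lists the 6 members with the most UMIs and the extremes. Genes named for single classes were picked after their values were seen. The members and lists were chosen with earlier results of these data known. Alternatives changed the filters, the Ptprc threshold, depth, weighting, totals, class mix and doublets. Promoter sequences are from RefSeq, build GRCm38.p6, and matched 31 of 39 p53 target genes and 12 of 14 clock genes by symbol.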

Additional observations from a re-analysis of the deposited data

How the results depend on the processing

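The share of Ptprc-positive barcodes was lower in CONV than in NI under each alternative run, at 48.8% and 33.7% with a mitochondrial limit of 5%, 30% and 17% at 2 Ptprc UMIs, 25.8% and 18.2% after thinning to 1000 UMIs, and 49.4% in NI with no barcode dropped for thymocyte genes. Both the counts of genes past 1.5-fold and the named ratios depended on the settings. Over all barcodes 852 genes were higher and 766 lower. The counts were 1752 and 1605 with no thymocyte drop, 469 and 470 with the same class mix, 1740 and 1748 with no filter on low counts, 1329 higher with barcodes weighted equally, and 476 lower after thinning. In Ptprc-positive barcodes 441 were higher and 352 lower, against 995 and 1309 with no thymocyte drop, 270 and 185 at 2 Ptprc UMIs, 121 and 112 after thinning, 2342 and 3136 with no filter, and 181 higher with the same class mix. The share of higher genes among these calls was 55.6%, and 43.2% with no thymocyte drop, when the median gene also lay at -0.11, and 42.8% with the same class mix. In Ptprc-negative barcodes 643 were higher and 578 lower, against 1902 and 1993 with no filter, 915 lower with no thymocyte drop and 371 lower after thinning.

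A pair of alternatives was chosen after seeing the data. Among genes found in at least 10% of barcodes of the library where they were higher, 204 were higher and 289 lower over all barcodes, and 196 and 282 in Ptprc-negative barcodes, so that the share of higher genes was 41.4% and 41% in place of 52.7% in each. Leaving out the top barcode of each gene turned Bpifa1 to 0.893 and Ccl21a to 4.22 in Ptprc-positive barcodes. At 2 Ptprc UMIs Ccl21a was 17 and Retnlg 1.01 there. After thinning, Ptprc-negative Ccl4 was 0.981, Retnlg 0.637 and Scgb3a1 1.01, and Scgb3a1 over all barcodes was 1.13, also 1.13 with equal weights and 1.21 with the wider thymocyte drop. Except for the top barcodes left out, the cause was not tested. With the same class mix 29 of 209 named ratios over all barcodes were no longer past 1.5-fold, 27 in Ptprc-positive and 21 in Ptprc-negative barcodes. No paired analysis was possible because each group is 1 library.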

Other observations

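Histone genes outside the report's comparisons were lower in part. Of 11 listed, all of which passed the filter over all barcodes, 5 were lower and none higher, against 8.27% of all genes lower. Their median log2 ratio was -0.26, and 3 were lower with the same class mix. H2afx, whose protein marks DNA breaks when phosphorylated, was at 73.4 CPM in NI and 40.6 CPM in CONV, a ratio of 0.553. Hist1h1c, a linker histone, was at 91.8 and 58.3 CPM, a ratio of 0.635. In Ptprc-positive barcodes 5 of 7 measured glucocorticoid-responsive genes, of 12 listed, were higher, against 9.69% of all genes, and 2 with the same class mix. They include Klf9 at 29.2 and 62.4 CPM, 2.13-fold, and Sgk1, a kinase of ion transport, at 147 and 253 CPM, 1.72-fold, or 1.19-fold with the same class mix. Tsc22d3, the glucocorticoid-induced leucine zipper, lay the other way there, at 325 and 231 CPM, a ratio of 0.710.

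Metallothioneins bind zinc and copper. Mt2 was at 88.8 CPM in NI and 195 CPM in CONV in Ptprc-positive barcodes, 2.19-fold higher, and had a ratio of 1.03 in Ptprc-negative barcodes. The Ptprc-positive ratio was 1.44 with the same class mix and 1.19 at 2 Ptprc UMIs, and in myeloid-like barcodes alone the Mt2 ratio was 1.15. Haemoglobin transcripts were 10.8-fold higher in CONV over all barcodes for Hbb-bs, at 26.2 and 283 CPM, and FLASH had 562 CPM.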
